A study of Mus musculus with 8 samples.

Results

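Connexins and pannexins are the channel proteins through which astrocytes exchange small molecules with each other and with the extracellular space. The 6 genes described here are the connexins Gja1, Gjb2, Gjb6 and Gjc1 and the pannexins Panx1 and Panx2, out of 18194 genes named on the array. They were taken by symbol, with every probe set that the platform annotation gave to 1 of them and to no other gene. This made 12 of 45101 probe sets: 6 for Gja1, 2 for Gjc1 and 1 for each of the others. The members and the lists counted below were chosen with earlier results of these data known, so counts of calls among them are descriptions. Connexins assemble into hexameric hemichannels that dock between neighbouring cells to form gap junctions, which pass ions, second messengers and metabolites and couple astrocytes into networks. Astrocytes are known for Gja1 (Cx43) and Gjb6 (Cx30) and, in part, for Gjb2 (Cx26). Pannexins form channels in the membrane of a single cell that release ATP and do not usually dock into junctions.

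Total RNA of mouse cerebral cortex was hybridised to 8 Affymetrix arrays, 2 in each of 4 groups. The groups were FGF2 with U0126, an inhibitor of the MEK kinases, FGF2 with SB202190, an inhibitor of p38 kinases, FGF2 alone and vehicle, so that FGF2 (fibroblast growth factor-2) was shared by every group but vehicle. The title of the series names the response of astroglia to FGF2. The labels give no strain, age, dose, time or form of the preparation, and they do not say whether arrays of a group stand for different cultures or animals. No group had an inhibitor without FGF2, so the effect of each inhibitor was measured only on top of the growth factor. Replicate 2 of FGF2 with SB202190 carried the treatment type acclimatization in its label where the other arrays carried wait, and it was kept in its group.

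Values below are deposited signals, which are intensities on a linear scale with every array scaled to a common mean. The median signal of an array lay between 22.3 and 27.8, and the trimmed mean was 150.001 on each. Changes are log2 differences between group means after a pseudocount of 1.77 and quantile normalization, with their SE, n = 2 arrays a group, and p-values from limma adjusted over all 13174 genes tested. A gene was tested when its mean log2 value over the 8 arrays passed the 40th percentile of all probe sets, which equals a signal of 12.4, and called at an adjusted p under 0.05. A signal of one probe set cannot be set against that of another, so levels are compared between arrays and not between genes. The RNA was taken from many cells at once, so fewer cells of a type and less RNA per cell cannot be told apart.

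The arrays were labelled cerebral cortex, and most defining markers of neurons and microglia were below the filter. All 10 astrocyte markers, such as Gfap and Aqp4, passed the filter. Of 8 neuronal markers 3 passed, and Snap25, Rbfox3, Nefl, Slc17a7 and Gad2 did not. Of 6 microglial markers 1 passed, with Aif1, Cx3cr1, C1qa, Itgam and P2ry12 below the filter. Markers of meningeal fibroblasts and pericytes passed in 10 of 11 cases, and those of ependymal and choroid plexus cells in 5 of 6. All 4 markers of oligodendrocyte precursors passed, against 2 of 5 endothelial ones and 2 of 5 of myelinating oligodendrocytes. Leptomeningeal cells are also known to make Gjb2 and Gjb6.

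FGF2 changed 4 of the 5 members that could be tested. Gja1, Gjb2 and Gjb6 fell, Gjc1 rose, and Panx1 had a log2 change of 0.31 ± 0.19 that was not called. Among all genes tested 37.9% were called in this comparison, 18.9% higher and 19% lower, so a call is common here. Gjb6 passed the filter only through the vehicle arrays and therefore had to differ, and the count of 4 is a description for that reason. The members' median log2 change was -1.28, beside -0.0039 for all genes tested. When the arrays were centred on their medians in place of quantile normalization, 4018 genes were called higher and 1479 lower, against 2489 and 2502 after quantile normalization, and the called members kept their direction. Under that centring the median of all genes moved to 0.16.

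**Figure D1:**
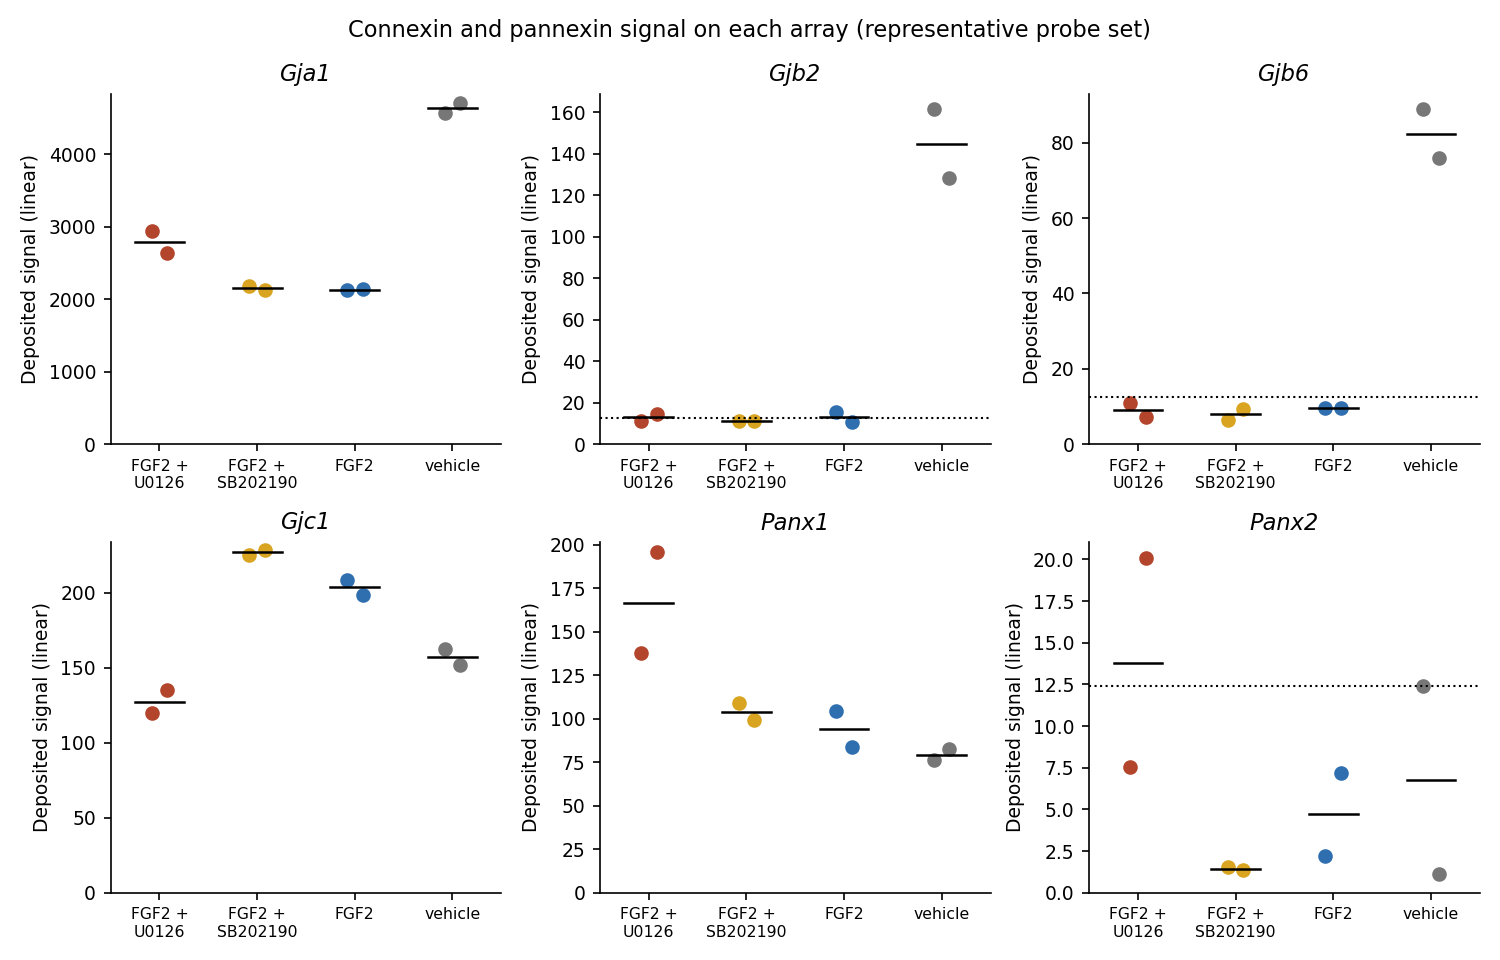
Deposited signals of the 6 members, 1 panel a gene, with the groups FGF2 with U0126, FGF2 with SB202190, FGF2 and vehicle from left to right. Points are arrays, bars are means of 2 arrays and dotted lines mark the signal of 12.4 that equals the filter, and Gjb2 and Gjb6 stand at 128 or more and 75.8 or more on the vehicle arrays only.

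Gja1 encodes Cx43, the connexin that carries most coupling between astrocytes. Its brightest probe set, 1437992_x_at, had signals of 2123 and 2146 with FGF2, against 4574 and 4709 with vehicle. With FGF2 and U0126 the signals were 2941 and 2642, and with FGF2 and SB202190 they were 2177 and 2135. Vehicle was highest, FGF2 with U0126 came next without overlapping any other group, and the arrays of FGF2 alone and of FGF2 with SB202190 lay between 2123 and 2177. The log2 change was -1.28 ± 0.06 for FGF2 against vehicle (adjusted p = 4.21e-09). U0126 with FGF2 was higher than FGF2 alone by 0.42 ± 0.06 (adjusted p = 0.000159) and lower than vehicle by a log2 change of -0.85 ± 0.06 (adjusted p = 1.61e-07). SB202190 with FGF2 differed from FGF2 alone by 0.02 ± 0.06, with a 95% confidence interval of -0.10 to 0.14.

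The 6 probe sets of Gja1 were then fitted separately, with p adjusted over all 45101 probe sets. All 6 were lower with FGF2 than with vehicle, where 7.92% of all probe sets were called lower. Their log2 changes ran from -2.55 ± 0.11 for 1438650_x_at to -0.53 ± 0.13 for 1438973_x_at, so they share a direction and differ in size. Against FGF2 alone, U0126 with FGF2 was higher in 5 of 6, beside 3.88% of all probe sets. The exception was 1438973_x_at, with signals of 90.3 and 86.7 with FGF2 and U0126, against 120 and 107 with FGF2, and a log2 change of -0.35 ± 0.13 that was not called (adjusted p = 0.138). Against vehicle, all 6 were lower with FGF2 and U0126 (6.19% of all probe sets) and with FGF2 and SB202190 (7.36%). The probe sets of Gja1 are not replicates, since they read the same RNA.

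SB202190 with FGF2 was called against FGF2 alone in 1 of the 6, where 0.421% of all probe sets were called higher. That probe set, 1438650_x_at, had signals of 895 and 1226 with FGF2 and SB202190, against 439 and 428 with FGF2. Its log2 change was 1.26 ± 0.11 (adjusted p = 0.000485). The other 5 had log2 changes between -0.14 and 0.29, none of them called. A name ending in _x_at marks a probe set with probes that can also match other transcripts, as 4 of the 6 do. The 2 without that ending, 1415800_at and 1415801_at, had log2 changes of 0.20 ± 0.06 and -0.14 ± 0.08 for SB202190 with FGF2 against FGF2. For U0126 with FGF2 against FGF2 they had 0.39 ± 0.06 and 0.52 ± 0.08, both called.

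The inhibitors were also compared with each other. U0126 with FGF2 was higher than SB202190 with FGF2 by 0.40 ± 0.06 for 1437992_x_at, the probe set that stands for Gja1 in the fit of genes (adjusted p = 0.000221). Of the 6 probe sets 2 were called higher, beside 4.16% of all probe sets: 1437992_x_at and 1415801_at, and 1415801_at had 555 and 567 with FGF2 and U0126, against 378 and 327 with FGF2 and SB202190. With the mean of its 6 probe sets the difference for Gja1 was 0.13 and not called (adjusted p = 0.151). The difference between the inhibitors for this gene thus depends on the probe set.

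**Figure D2:**
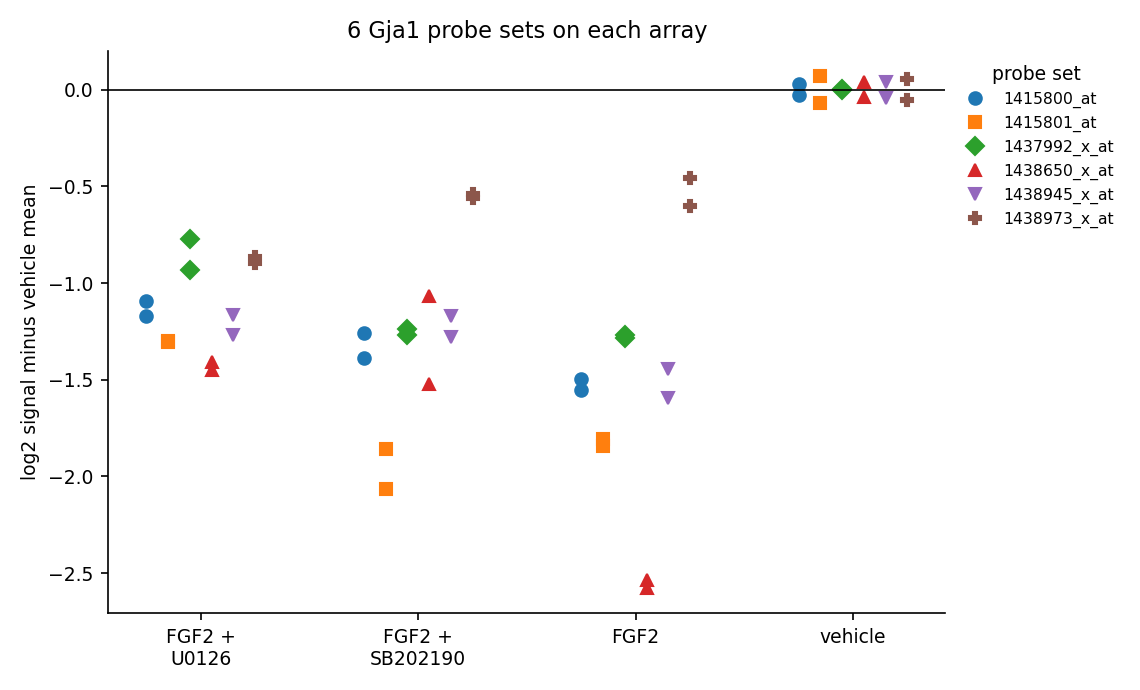
Quantile-normalized log2 signals of the 6 probe sets of Gja1 minus their mean on the vehicle arrays, with the groups FGF2 with U0126, FGF2 with SB202190, FGF2 and vehicle from left to right and 1 point an array. All 6 lie lower with FGF2 than with vehicle, and 1438650_x_at has the widest gap between FGF2 with SB202190 and FGF2.

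The promoter of Gja1 is shown because its fall with FGF2 had the smallest SE and adjusted p among the members. RefSeq promoters of 300 bases, 250 before the start of the gene and 50 after it, were matched by symbol for 4 of the 6 members, on build GRCm38.p6. The motifs searched on both strands were the AP-1 letters TGANTCA, the ETS letters CCGGAA, the GC box GGGCGG, the TATA box TATAAA and the CRE TGACGTCA. They occurred in 7.81%, 14.9%, 35.7%, 13.6% and 1.79% of 32851 promoters of the same length, and they were chosen after the sequences had been seen. Capitals mark matches, and a match describes letters only. The Gja1 window lies at chr10:56377050-56377349 on the + strand and holds 1 AP-1 match, TGAGTCA, which starts 19 bases before the start site.
Gja1: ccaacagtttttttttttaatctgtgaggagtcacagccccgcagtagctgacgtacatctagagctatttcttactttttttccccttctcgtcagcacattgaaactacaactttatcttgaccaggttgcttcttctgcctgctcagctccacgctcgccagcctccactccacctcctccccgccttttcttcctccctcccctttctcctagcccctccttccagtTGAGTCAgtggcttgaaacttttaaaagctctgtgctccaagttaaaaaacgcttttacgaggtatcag

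Gjb2 and Gjb6 are neighbours on chromosome 14, where Gja3, Gjb2 and Gjb6 follow each other among the coding genes of the RefSeq table. Gjb2 encodes Cx26, a connexin of leptomeningeal cells and some astrocytes, and Gjb6 encodes Cx30, a connexin of mature astrocytes. Gjb2 had signals of 15.3 and 10.8 with FGF2, against 161 and 128 with vehicle. With FGF2 and U0126 it had 11.4 and 14.5, and with FGF2 and SB202190 it had 11.3 and 11.0. Gjb6 had 9.51 and 9.54 with FGF2, against 88.9 and 75.8 with vehicle, and all 6 arrays with FGF2 were below 12.4 for this gene. For both genes the vehicle arrays stood alone, and the 6 arrays with FGF2 lay between 10.8 and 15.3 for Gjb2 and between 6.47 and 11.0 for Gjb6.

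The log2 change for FGF2 against vehicle was -3.25 ± 0.36 for Gjb2 (adjusted p = 1.22e-05) and -2.81 ± 0.44 for Gjb6 (adjusted p = 0.000203). Since Gjb6 passed the filter only through the vehicle arrays, its call among genes is a description. In the limma fit of all probe sets, which has no filter, the adjusted p was 0.000133 for Gjb2 and 0.00131 for Gjb6. There 7.92% of all probe sets were called lower. Signals near the filter are imprecise and the sizes depend on the pseudocount. With a pseudocount of 16 in place of 1.77 the changes were -2.42 for Gjb2 and -1.88 for Gjb6, still called. On the signal scale Gjb2 averaged 13.1 ± 3.19 with FGF2 and 145 ± 23.6 with vehicle, and Gjb6 averaged 9.52 ± 0.0221 with FGF2 and 82.4 ± 9.25 with vehicle (SD, n = 2 each).

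Neither inhibitor changed Gjb2 or Gjb6 against FGF2 alone beyond the test. With FGF2 and U0126 the signals of Gjb6 were 11.0 and 7.10, and with FGF2 and SB202190 they were 6.47 and 9.34. For U0126 with FGF2 against FGF2 the log2 change of Gjb2 was 0.02 ± 0.36, with an interval of -0.76 to 0.81, and that of Gjb6 was -0.01 ± 0.44, with an interval of -0.95 to 0.93. For SB202190 with FGF2 the log2 change was -0.13 ± 0.36 for Gjb2, with an interval of -0.92 to 0.65. For Gjb6 it was -0.18 ± 0.44, with an interval of -1.12 to 0.77. These intervals leave room for changes of moderate size, and they do not reach back to vehicle. Against vehicle, both genes were called lower with each inhibitor, at -3.23 ± 0.36 for Gjb2 and -2.82 ± 0.44 for Gjb6 with FGF2 and U0126, and at -3.39 ± 0.36 and -2.99 ± 0.44 with FGF2 and SB202190. The 3 comparisons with vehicle share its 2 arrays, and in each the call of Gjb6 among genes is a description because of the filter. In the fit of all probe sets both genes were also called lower than vehicle with each inhibitor. There 6.19% of all probe sets were called lower with FGF2 and U0126 and 7.36% with FGF2 and SB202190.

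The summed signals of several marker lists also differed between groups, some lower and some higher with FGF2. A sum adds unlike probe sets and so follows its brightest ones. With FGF2, Olig1 averaged 3212 in the sum of oligodendrocyte precursors and Ttr 2464 in that of ependymal and choroid plexus cells. Cnp averaged 2087 with FGF2 in the sum of myelinating oligodendrocytes and made up nearly all of it. The summed signal of the 10 astrocyte markers was 14396 to 14422 with FGF2 and U0126, 11338 to 11435 with FGF2 and SB202190, 11586 to 11739 with FGF2 and 20742 to 21139 with vehicle. All 10 were called lower with FGF2 than with vehicle, beside 19% of all genes, and 7 of 10 were called higher with FGF2 and U0126 than with FGF2, beside 11.6% of all genes. Gja1 was called in the same direction in both comparisons, and Gjb2 and Gjb6 only in the comparison with vehicle. The 11 markers of meningeal fibroblasts and pericytes summed to 7175 to 7215 with FGF2 and U0126, 6658 to 7608 with FGF2 and SB202190, 7532 to 8173 with FGF2 and 13388 to 13408 with vehicle. Of the 10 above the filter, 6 were called lower with FGF2 than with vehicle, beside 19% of all genes. Slc6a13, a transporter of leptomeningeal cells, was below the filter by its mean and was not tested. Its signal averaged 45.1 with vehicle, 10.9 with FGF2, 13.3 with FGF2 and U0126 and 2.91 with FGF2 and SB202190. The vehicle arrays of Slc6a13, at 40.1 or more, lay above all others, which reached 17.1 at most. The sum of the 6 ependymal and choroid plexus markers was 3802 to 4968 with FGF2 and U0126, 3272 to 3976 with FGF2 and SB202190, 3208 to 4117 with FGF2 and 5705 to 5938 with vehicle. Of the 5 above the filter, 4 were called lower with FGF2 than with vehicle, beside 19% of all genes, and 4 higher with FGF2 and U0126 than with FGF2, beside 11.6%. The 4 oligodendrocyte precursor markers summed to 2278 to 2384 with FGF2 and U0126, 2667 to 2827 with FGF2 and SB202190, 3356 to 3429 with FGF2 and 1820 to 1832 with vehicle. Only 1 of them, Olig1, was called higher with FGF2 than with vehicle, by 0.91 ± 0.06 (adjusted p = 5.44e-08), beside 18.9% of all genes. The other 3 were not called, and the median log2 change of the 4 was -0.11, so the rise of the sum is that of Olig1. The neuronal sum was 123 to 157 with FGF2 and U0126, 259 to 282 with FGF2 and SB202190, 211 to 226 with FGF2 and 161 to 177 with vehicle. Of the 3 neuronal markers above the filter, 1 was called higher with FGF2 than with vehicle, beside 18.9% of all genes. It was Tubb3, with a log2 change of 1.28 ± 0.17 (adjusted p = 6.69e-05). Syt1 and Gad1 had log2 changes of -0.67 ± 0.35 and -0.296 ± 0.549, neither of them called. The endothelial sum was 54.3 to 54.6 with FGF2 and U0126, 69.3 to 72.4 with FGF2 and SB202190, 100.4 to 118 with FGF2 and 67.7 to 83.5 with vehicle. Of the 2 endothelial markers above the filter, 0 were called higher with FGF2 than with vehicle. The 5 myelinating oligodendrocyte markers summed to 2060 to 2200 with FGF2 and 2458 to 2544 with vehicle. With FGF2 and U0126 their sum was 1559 to 1563, and with FGF2 and SB202190 2176 to 2355. Of the 2 above the filter, 1 was called lower with FGF2 than with vehicle, beside 19% of all genes. The microglial sum was 95.5 to 95.6 with FGF2 and 67.0 to 98.7 with vehicle, ranges that overlap. It was 42.4 to 98.2 with FGF2 and U0126 and 66.1 to 80.6 with FGF2 and SB202190. The part of these cell types in the falls of Gja1, Gjb2 and Gjb6 was not tested.

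The promoters of Gjb2 and Gjb6 are set side by side because the genes fell together. The Gjb2 window lies at chr14:57104653-57104952 on the - strand, with 27 CpG dinucleotides and a GC content of 70%. It holds 2 GC boxes, GGGCGG starting at -211 and its reverse complement CCGCCC at -126. The Gjb6 window lies at chr14:57133562-57133861 on the - strand, with 6 CpG dinucleotides, a GC content of 57.3% and no match to the 5 motifs. The median over all promoters was 7 CpG dinucleotides and 52.7% GC. The pair differ in base composition, and a link between these sequences and the falls was not tested.
Gjb2: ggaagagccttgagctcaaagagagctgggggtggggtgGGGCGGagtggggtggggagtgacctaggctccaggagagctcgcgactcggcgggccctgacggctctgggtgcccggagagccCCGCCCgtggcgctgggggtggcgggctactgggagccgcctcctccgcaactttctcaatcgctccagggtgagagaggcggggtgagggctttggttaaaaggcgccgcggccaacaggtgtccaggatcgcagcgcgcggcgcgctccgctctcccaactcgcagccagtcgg
Gjb6: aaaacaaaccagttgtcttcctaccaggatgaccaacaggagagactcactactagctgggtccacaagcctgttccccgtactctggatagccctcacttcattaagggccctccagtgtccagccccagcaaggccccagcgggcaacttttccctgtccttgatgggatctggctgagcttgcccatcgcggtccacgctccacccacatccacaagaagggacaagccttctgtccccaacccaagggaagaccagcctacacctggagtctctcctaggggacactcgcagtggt

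Gjc1 moved the other way. It encodes Cx45, a connexin better known from the heart, vascular muscle and embryonic neurons. Probe set 1449094_at had signals of 119.9 and 135 with FGF2 and U0126, against 209 and 199 with FGF2. With FGF2 and SB202190 they were 225 and 228, and with vehicle 163 and 152. The 4 groups did not overlap, with FGF2 and U0126 lowest and FGF2 and SB202190 highest. U0126 with FGF2 was lower than FGF2 by a log2 change of -0.69 ± 0.12 (adjusted p = 0.000938) and lower than SB202190 with FGF2 by -0.83 ± 0.12 (adjusted p = 0.000216). FGF2 alone was higher than vehicle by 0.41 ± 0.12 (adjusted p = 0.0136).

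The call of Gjc1 for FGF2 against vehicle was lost without either of 2 of the 8 arrays, while the change stayed between 0.37 and 0.44 over all 8. It was 0.37 with an adjusted p of 0.0828 without FGF2 replicate 1 and 0.37 with an adjusted p of 0.0693 without vehicle replicate 2. SB202190 with FGF2 was higher than vehicle by 0.54 ± 0.12 (adjusted p = 0.00225) and differed from FGF2 alone by 0.14 ± 0.12, with an interval of -0.11 to 0.39. U0126 with FGF2 against vehicle had a log2 change of -0.28 ± 0.12 that was not called (adjusted p = 0.0821).

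The other probe set of Gjc1, 1447787_x_at, had signals of 60.5 and 68.3 with FGF2 and U0126, 109.6 and 128 with FGF2 and SB202190, 109 and 133 with FGF2 and 69.3 and 72.9 with vehicle. Here the arrays with U0126 lay just under those of vehicle, and FGF2 and SB202190 overlapped FGF2. In the fit of all probe sets it was higher with FGF2 than with vehicle by 0.82 ± 0.17 (adjusted p = 0.0055) and lower with FGF2 and U0126 than with FGF2 by a log2 change of -0.88 ± 0.17 (adjusted p = 0.00782). Of all probe sets 8.74% were called higher and 4.19% lower in these comparisons. With FGF2 and SB202190 against vehicle both probe sets of Gjc1 were called higher (8.28% of all probe sets), and with FGF2 and U0126 against FGF2 and SB202190 both were called lower (4.12%). Both probe sets thus had the same direction in these comparisons.

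Panx1 encodes the widely made pannexin that releases ATP. Its probe set had signals of 138 and 196 with FGF2 and U0126, 109 and 99.4 with FGF2 and SB202190, 104 and 83.9 with FGF2 and 76.4 and 82.4 with vehicle. The arrays with U0126 were above all others, the arrays of the other 3 groups lay closer together, and the replicates with U0126 were far apart. U0126 with FGF2 was higher than FGF2 by 0.78 ± 0.19 (adjusted p = 0.009), higher than vehicle by 1.09 ± 0.19 (adjusted p = 0.000571) and higher than SB202190 with FGF2 by 0.63 ± 0.19 (adjusted p = 0.0264). In the fit of all probe sets it was called higher with FGF2 and U0126 than with vehicle, where 6.74% of all probe sets were, and than with FGF2, but not than with FGF2 and SB202190 (adjusted p = 0.0612). Against FGF2 it ranked 525 from the highest of 13174 genes. For FGF2 against vehicle the log2 change of 0.31 ± 0.19 had an interval of -0.09 to 0.71.

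Single arrays carried part of the Panx1 result. Without FGF2 with U0126 replicate 2, the change against FGF2 was 0.51 (adjusted p = 0.115) and that against SB202190 with FGF2 was 0.36 (adjusted p = 0.264). Without FGF2 replicate 2 the change against FGF2 was 0.63 (adjusted p = 0.0871). The comparison with SB202190 was also lost without either array of that group, at 0.70 (adjusted p = 0.0669) without replicate 1 and 0.56 (adjusted p = 0.147) without replicate 2. The comparison of U0126 with vehicle was called in every alternative run.

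The Panx1 promoter is shown as that of the member called higher with FGF2 and U0126 than with vehicle. It lies at chr9:15045429-15045728 on the - strand, with 25 CpG dinucleotides and a GC content of 61.3%. The run TTCCGGAA occurs at -36 and at 11, and each holds the ETS letters CCGGAA on both strands in overlapping matches.
Panx1: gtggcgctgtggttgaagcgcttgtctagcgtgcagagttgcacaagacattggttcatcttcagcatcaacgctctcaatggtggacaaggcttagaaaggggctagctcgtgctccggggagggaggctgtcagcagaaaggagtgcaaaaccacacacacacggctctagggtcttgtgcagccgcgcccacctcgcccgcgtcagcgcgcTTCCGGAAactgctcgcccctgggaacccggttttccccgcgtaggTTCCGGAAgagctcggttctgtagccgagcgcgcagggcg

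Panx2, a pannexin of neurons, could not be tested among genes, since its mean log2 value of 2.68 lay below the filter. Its signals were 7.52 and 20.1 with FGF2 and U0126, 1.54 and 1.35 with FGF2 and SB202190, 2.23 and 7.18 with FGF2 and 12.4 and 1.12 with vehicle. The vehicle arrays spanned a range that overlapped each of the other groups. With no filter, 0 of the 6 comparisons were called in limma for Panx2, with the largest log2 change, 2.12 ± 0.80, for U0126 with FGF2 against SB202190 with FGF2 (adjusted p = 0.109).

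**Figure D3:**
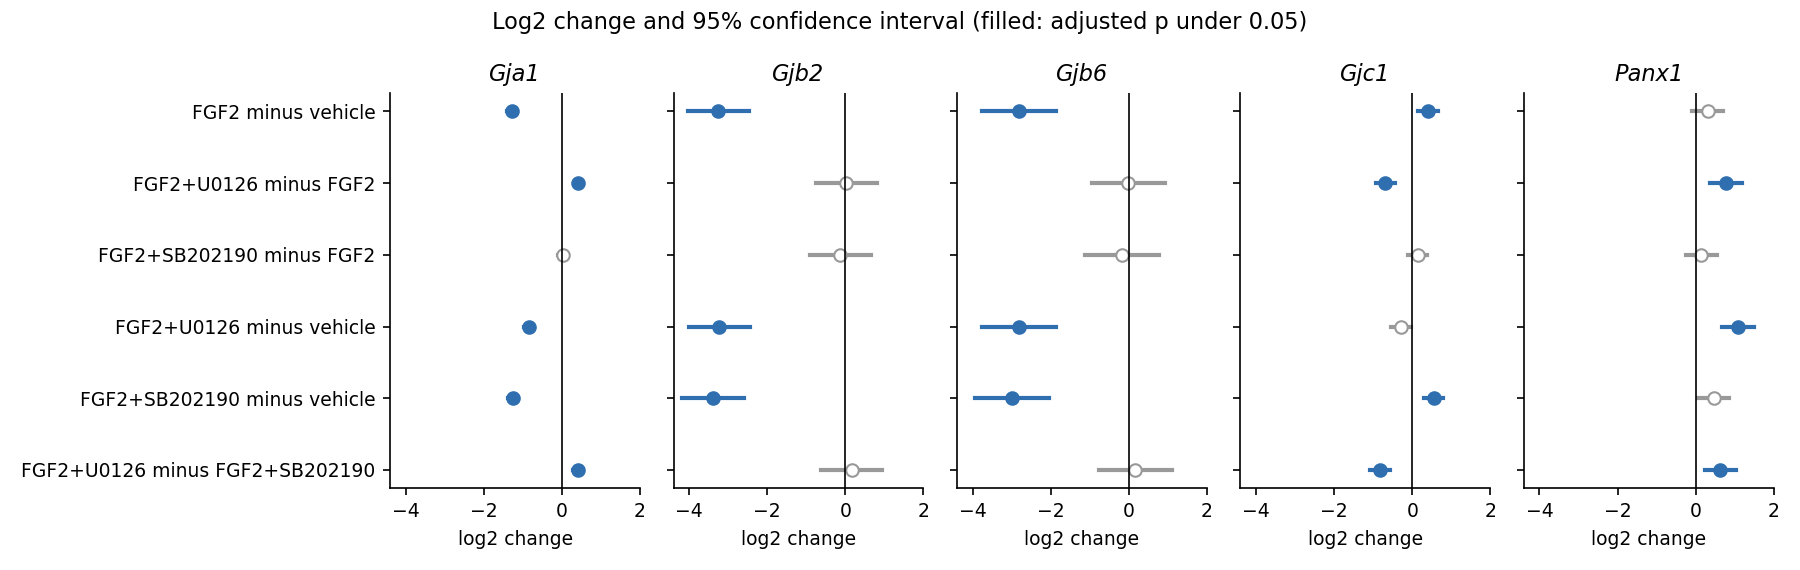
Log2 changes of the 5 members tested in each comparison, with 95% confidence intervals as bars and filled points for an adjusted p under 0.05. Gja1, Gjb2 and Gjb6 lie below 0 in the comparisons with vehicle, and Gja1 and Panx1 above 0 and Gjc1 below 0 for FGF2 with U0126 against FGF2.

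The inhibitor comparisons can be read side by side, and both share the FGF2 arrays. Their counts of members are descriptions, since the members were chosen with earlier results of these data known. U0126 with FGF2 against FGF2 called 3 of 5 members, Gja1 and Panx1 higher and Gjc1 lower, where 22.1% of all genes were called, 11.6% higher and 10.5% lower. The members' median was 0.02, beside 0.03 for all genes. SB202190 with FGF2 against FGF2 called 0 of 5 in limma, where 3.02% of all genes were called, 1.32% higher and 1.7% lower. In this fit of genes no member had an unadjusted p under 0.05 in that comparison, and the lowest was 0.25. Under each of the other settings run for genes 0 members were called. In the fit of all probe sets 1 of the 6 probe sets of Gja1, 1438650_x_at, was called higher, by 1.26 ± 0.11 (adjusted p = 0.000485). There 0.421% of all probe sets were called higher. In that fit 1438945_x_at and 1415800_at had log2 changes of 0.29 and 0.20 with unadjusted limma p of 0.0016 and 0.0085, neither called after adjustment. The rest of the Gja1 probe sets lay between -0.14 and 0.02 and were not called either. In the fit of genes the members' median for SB202190 with FGF2 against FGF2 was 0.02, beside -0.0048 for all genes. The inhibitors compared with each other called 3 of 5, where 22.7% of all genes were called: Gja1 and Panx1 higher (12.4% of all genes) and Gjc1 lower (10.3%).

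Against vehicle, U0126 with FGF2 called 4 members where 31.7% of genes were called, 16.7% higher and 15% lower. Panx1 was higher and Gja1, Gjb2 and Gjb6 lower. SB202190 with FGF2 called 4 where 35.8% were called, 18% higher and 17.8% lower, with Gjc1 higher and the same 3 genes lower. Both counts of 4 are a description, since Gjb6 passed the filter through the vehicle arrays alone. Median centring gave 4030 genes higher and 1014 lower for U0126, against 2196 and 1981 after quantile normalization, and 4059 and 1437 for SB202190, against 2377 and 2345. It moved the Gja1 change to -0.92 for FGF2 against vehicle and to -0.53 for U0126 with FGF2 against vehicle, both called.

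**Figure D4:**
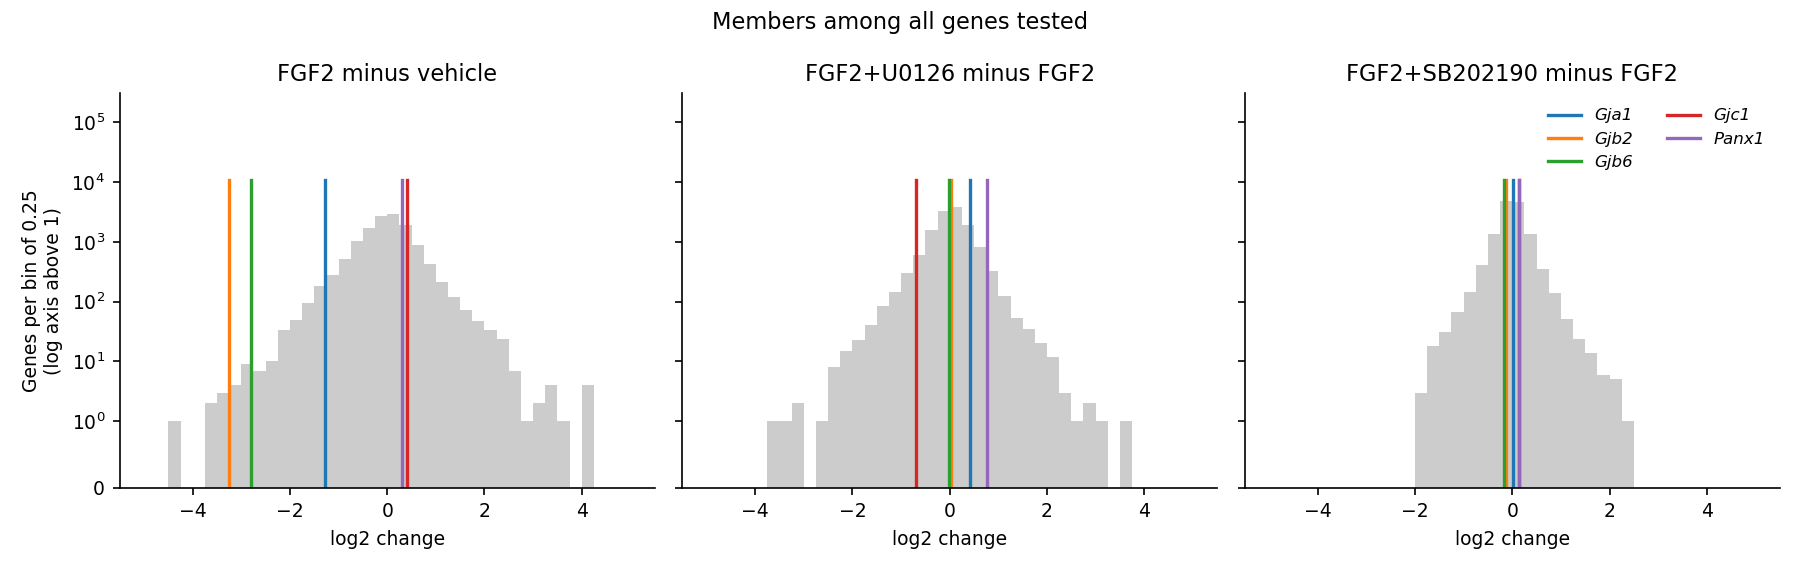
Log2 changes of all 13174 genes tested in 3 comparisons, FGF2 minus vehicle and each inhibitor with FGF2 minus FGF2, in bins of 0.25, with the number of genes on an axis that is logarithmic above 1 and a coloured line for each of the 5 members. For FGF2 against vehicle Gjb2 at -3.25 and Gjb6 at -2.81 lie near the lower end.

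The rest of the gap junction family was mostly below the filter where it could be measured. Of 17 further family members, other connexins and Panx3, 11 had a probe set of their own here and 6 were not analysed. Of the 11, Gja4, a connexin of vessels, and Gjc3, one of oligodendrocytes, passed the filter, and 9 were below it and not tested. Of the 2 tested, 0 were called by limma in any comparison, nor had an unadjusted p under 0.05. Gja4 had 23.1 and 24.7 with FGF2, against 12.3 and 24.3 with vehicle, ranges that overlap. The signals of the other 9 stayed between 0.180 and 22.9. Gja5, a connexin of arteries, did not exceed 3.00 on any array, and Gjb1, a connexin of oligodendrocytes, had a median of 2.98.

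Genes that anchor or modify connexins were counted as a list. It held 18 scaffolds, kinases and regulators, of which 15 were tested. With FGF2 and U0126 against FGF2, 1 was higher and 8 were lower, beside 11.6% of all genes higher and 10.5% lower, with a list median of -0.20 and a median of 0.03 over all genes. Ccn3, a matricellular protein that binds the tail of Cx43, had 319 and 332 with FGF2 and U0126, against 130 and 142 with FGF2. Its log2 change was 1.22 ± 0.11 (adjusted p = 5.63e-06). Tjp1, the ZO-1 scaffold of the Cx43 tail, had 949 and 1093 with FGF2 and U0126, against 1463 and 1509 with FGF2. Its log2 change was -0.54 ± 0.08 (adjusted p = 0.000224). Gja1 was called higher in the same comparison, so the connexin and its scaffold had opposite directions. Cttn, an actin-binding protein, had -0.31 ± 0.05, and Nedd4, a ubiquitin ligase of Cx43, had -0.29 ± 0.05, both called.

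The direction differed for some of these genes between comparisons. FGF2 against vehicle had 3 higher and 2 lower of 15, beside 18.9% of all genes higher and 19% lower, so that the 5 called were near the 37.9% over all genes. The list median was 0.13. Cav1, the scaffold of caveolae, rose by 0.47 ± 0.07 (adjusted p = 0.000186), with 1856 and 1947 with FGF2, against 1282 and 1408 with vehicle. Ccn3 fell, with a log2 change of -0.47 ± 0.11 (adjusted p = 0.0037). The other gene called lower, Ctnnb1, which encodes beta-catenin, had a log2 change of -0.17 ± 0.04 after quantile normalization, while its deposited signal averaged 5672 ± 236 with FGF2 and 5444 ± 1.01 with vehicle (SD, n = 2 each). SB202190 with FGF2 against FGF2 had 2 higher and 1 lower, beside 1.32% of all genes higher and 1.7% lower. With variances moderated without an intensity trend, 0 of 13174 genes were called in that comparison, so that these 3 calls were lost. Ccn3 was higher by 0.77 ± 0.11 (adjusted p = 0.00258) with 224 and 246, Cav1 lower by a log2 change of -0.50 ± 0.07 (adjusted p = 0.00314), and Dbn1, an actin-binding protein that holds Cx43 at the membrane, higher by 0.41 ± 0.10 (adjusted p = 0.038). The comparisons in which Ccn3 was called share the FGF2 arrays.

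Connexin hemichannels and pannexins release ATP, and the genes that sense or clear it were counted as a list of 18, of which 13 were tested. FGF2 against vehicle had 4 higher and 3 lower of 13, beside 18.9% of all genes higher and 19% lower, with a list median of 0.21. Slc29a1, an adenosine transporter, had 345 and 362 with FGF2, against 72.6 and 110 with vehicle, a log2 change of 2.02 ± 0.16 (adjusted p = 5.99e-07). P2ry2, a receptor for ATP and UTP, had 97.8 and 108 with FGF2, against 33.7 and 51.4 with vehicle, and rose by 1.41 ± 0.22 (adjusted p = 0.000242). Entpd2, an enzyme that removes phosphate from extracellular ATP, fell with a log2 change of -1.03 ± 0.15 (adjusted p = 0.000102), and P2ry14, a receptor for UDP-sugars, with -1.66 ± 0.33 (adjusted p = 0.00142). The groups of these 4 genes did not overlap, as for 68.4% of all genes tested.

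U0126 with FGF2 against FGF2 had 0 of these 13 higher and 2 lower, beside 11.6% of all genes higher and 10.5% lower. SB202190 with FGF2 against FGF2 also had 0 higher and 2 lower, beside 1.32% and 1.7%, and both of its calls were lost without the intensity trend. The same 2 genes, Slc29a1 and P2ry1, were called in each. Slc29a1 had 121 and 133 with FGF2 and U0126 and 192 and 194 with FGF2 and SB202190, log2 changes of -1.47 ± 0.16 (adjusted p = 3.21e-05) and -0.87 ± 0.16 (adjusted p = 0.0111) against FGF2. P2ry1, a receptor for ADP that drives calcium waves between astrocytes, had changes of -0.69 ± 0.18 (adjusted p = 0.0153) and -0.93 ± 0.18 (adjusted p = 0.015). P2rx7, an ATP-gated channel, was not called for FGF2 against vehicle, at 0.21 ± 0.25.

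The genes most like each member were ranked by Pearson's r over the 8 arrays, among 13172 other genes and as a description. The arrays share their 4 groups, so r mostly restates the order of the groups. For Gja1 they were Dnah7a at 0.999, Wls at 0.994, Slc38a1 at 0.993, Slc44a2 at 0.992 and Rnf180 at 0.992. For Gjb2 they were led by Gpam at 0.995 and Stat2 at 0.992, and for Gjb6 by Rnf144a and Ifitm2, both at 0.996. Ifitm2 was also on the list of Gjb2, at 0.991. For Gjc1 the first was Prkacb at 0.986, and for Panx1 Pycrl at 0.981.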

How the data were processed

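Expression was measured in 8 samples, 1 array each. The table the authors deposited holds intensity values on a linear scale; the algorithm behind them is not given in the sources used here, nor is the array's genome build. Of 45101 probe sets 34958 carried 1 gene symbol, 932 several and 9211 none, and genes were named from the first kind, with symbols updated by gene identifier. Values were taken to log2(value + 1.77), the 10th percentile, and quantile normalized. The probe set with the highest mean stood for a gene, and 13174 of 18194 genes passed the filter. All 8 arrays entered 1 fit in limma 3.58.1 (R 4.3.3) with an intensity trend, with 4 residual and 8.99 prior degrees of freedom, with two-sided p-values given a Benjamini-Hochberg adjustment per comparison over 6 comparisons. A second fit took all probe sets. The code was tested on simulated data. No label calls the replicates separate cultures or animals. The p-values then rest on the spread between arrays within groups, which can be technical. That spread was pooled over the 4 groups and moderated towards the trend over all genes. The number of arrays limits the precision.

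The text names all 6 members, members of the lists above the filter or with the smallest p, the cell type markers, and the 5 genes most like each member in part. P2rx7, Gja5 and Gjb1 were named after their values were seen. The members and lists were chosen with earlier results of these data known. Alternatives were other normalizations, pseudocounts, filters, variance priors, array weights, probe set rules and thresholds, only the arrays compared, leaving out single arrays, and the replicate block. Figures were drawn with Python 3.11.15 and matplotlib 3.10.9.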

Additional observations from a re-analysis of the deposited data

How the results depend on the processing

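Over 22 alternatives and 30 results of members, 631 of 648 values kept their side of the threshold. Among these, 6 uncalled values turned sign. Of the rest, 14 called values lost the call and 3 gained one, and 0 called values reversed. With the filter at the 60th percentile, which removed Gjb2 and Gjb6, 2 of 3 members tested were called in each comparison with vehicle in place of 4 of 5. With probe sets averaged per gene, 1 member was called between the inhibitors in place of 3. Panx1 between the inhibitors also lost its call without the filter (adjusted p = 0.0512), without the intensity trend (adjusted p = 0.0952) and with the mean of probe sets (adjusted p = 0.0507), and against FGF2 without the trend (adjusted p = 0.0587). SB202190 with FGF2 against vehicle gained a call for Panx1 with median centring, at 0.59 (adjusted p = 0.0197), and without either array of FGF2 with U0126. The threshold of 0.01 removed Gjc1 for FGF2 against vehicle and Panx1 between the inhibitors.

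With the replicate block 4, 3, 0, 4, 4 and 3 members were called, as without it, and it changed no call of a member. Same-numbered arrays deviated from their group means with r of -0.026 to 0.034, so no shared deviation was seen. The labels do not say whether they came from the same culture or animal, and these values cannot decide it.

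Calls over all genes for U0126 with FGF2 against FGF2 numbered 2916, and 1619 without the trend, 1782 with the mean of probe sets, 1620 at the threshold of 0.01, and 1849 and 1782 without FGF2 replicate 1 or 2. For SB202190 with FGF2 against FGF2 they numbered 398, and 0 without the trend, 235 with median centring, 170 with the mean of probe sets, 115 at the threshold of 0.01, 83 and 82 without FGF2 replicate 1 or 2 and 97 without replicate 2 of SB202190. Between the inhibitors they numbered 2986, and 1735, 1783 and 1689 without the trend, with the mean of probe sets and at the threshold of 0.01, and 1805 without replicate 2 of SB202190. For U0126 with FGF2 against vehicle they numbered 4177, and 2713 at the threshold of 0.01. The cause was not tested. Median centring moved the median of all genes to 0.16, 0.19 and 0.18 for FGF2, U0126 with FGF2 and SB202190 with FGF2 against vehicle. Signals near 12.4 limit what can be said of Gjb2 and Gjb6 with FGF2 and of Panx2. Groups of 2 arrays allow no test for an outlying array.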
